A study of Mus musculus with 28 samples.

Results

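The receptors through which glutamate and GABA act were examined as 1 gene set in ribosome profiling data from mouse neurons and from motor neuron-like cells. The members were all protein-coding genes whose symbol begins with Gria, Grik, Grin1, Grin2, Grin3, Grm and a digit, Gabra, Gabrb, Gabrg, Gabrd or Gabbr. This gave 39 genes out of 45513 in each table, of which 21501 are protein-coding. By subfamily there were 4 AMPA receptor genes (Gria), 5 kainate receptor genes (Grik), 7 NMDA receptor genes (Grin), 8 metabotropic glutamate receptor genes (Grm), 13 GABA-A receptor genes (Gabra, Gabrb, Gabrg, Gabrd) and 2 GABA-B receptor genes (Gabbr).

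Glutamate is the main excitatory transmitter of the cortex and GABA its main inhibitory transmitter. AMPA, kainate and NMDA receptors are cation channels opened by glutamate and built from 4 subunits, and NMDA receptors need the subunit encoded by Grin1. GABA-A receptors are chloride channels, most of which combine alpha and beta subunits with a gamma or delta subunit. Metabotropic glutamate receptors and the GABA-B receptor signal through G proteins, and the GABA-B receptor is a dimer of the products of Gabbr1 and Gabbr2.

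Ribosome footprints, the mRNA fragments that translating ribosomes protect from nuclease, and poly(A)-selected total mRNA were sequenced in parallel from each culture, 28 libraries in all. Cortical neurons were taken at embryonic day 16 from C57BL/6J mice and harvested after 14 days in vitro, with Ara-C added to remove cycling cells. They came from non-transgenic WT littermates (2 cultures), from hemizygous mice with human TDP-43 (hTDP-43, 3 cultures) and from hemizygous mice with the ALS patient mutant hTDP-43 A315T (3 cultures). Both transgenes are driven by the prion protein promoter, which is active in many cell types, and the endogenous mouse Tardbp gene is intact in all 3 genotypes. MN1 cells, a clonal hybrid line of mouse spinal motor neurons and neuroblastoma, received, by transient transfection, a plasmid for GFP, for hTDP-43 or for its A315T mutant (2 cultures of each). MN1 cells received 100 µg/mL cycloheximide for 3 min before lysis and neurons received none, so cell type and this treatment cannot be told apart. Neuron cultures are named here by genotype and replicate number. WT cultures carry the numbers 2 and 3 and no WT culture belongs to number 1. Whether the cultures of a group came from separate animals is not given in the sources used here, and the spread between them may be partly technical.

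Reads assigned to genes ranged from 166064 to 2528820 in the 8 neuron footprint libraries, from 600385 to 6969578 in the 8 neuron total mRNA libraries, from 332370 to 1219222 in the 6 MN1 footprint libraries and from 1328528 to 2988339 in the 6 MN1 total mRNA libraries. Mouse Tardbp did not pass the test between neuron genotypes (adjusted p of at least 0.918, edgeR), and counts on the mouse gene do not check the human transgenes. A list of 6 pan-neuronal markers summed to between 6720 and 10097 CPM (counts per 1000000 reads assigned to genes, after TMM scaling of the libraries of 1 type to each other) in neuron footprints and to between 609 and 720 CPM in MN1 footprints. Motor neuron markers summed to 54.2 to 75.4 CPM in MN1 footprints. The neuron cultures also held astrocyte markers, at 75.5 to 187 CPM in footprints, with WT between 75.5 and 152 CPM, hTDP-43 between 124 and 187 CPM and hTDP-43 A315T between 79.5 and 174 CPM, while the 4 microglial markers summed to at most 3.59 CPM. The part of these other cells in the values below was not tested. 1 feature set the total mRNA libraries apart from each other. Reads on Lars2, the gene of the mitochondrial leucyl-tRNA synthetase, took between 3.09% and 18.8% of a neuron total mRNA library and at most 1.71% of a neuron footprint library.

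The receptor genes took between 0.500% and 0.601% of all assigned footprint reads in the 8 neuron cultures and between 0.548% and 0.668% of total mRNA reads. In MN1 cells they took 0.00812% to 0.0146% of footprint reads and 0.0218% to 0.0260% of total mRNA reads. AMPA and GABA-A receptor genes had the highest summed footprints in neurons, at 1336 ± 294 and 1365 ± 187 CPM (SD, n = 8). NMDA receptor genes followed with 1267 ± 269 CPM, then GABA-B with 1002 ± 161 CPM from only 2 genes, metabotropic glutamate receptors with 671 ± 116 CPM and kainate receptors with 372 ± 76.9 CPM. The spreads of the first 3 sums overlapped. In total mRNA the order was different. NMDA receptor genes had the highest sum there, 1952 ± 502 CPM, and GABA-B came next at 1472 ± 60.1 CPM, ahead of GABA-A at 1084 ± 229 CPM, AMPA at 1024 ± 231 CPM, kainate at 978 ± 76.0 CPM and metabotropic receptors at 508 ± 96.0 CPM.

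Levels were compared between genes as CPM per kb of exonic length, the length over which reads were counted. Gabbr1, the ligand-binding subunit of the GABA-B receptor, had the highest footprint level. It measured 97.8 and 90.7 CPM per kb in WT, 104, 71.1 and 72.6 CPM per kb in hTDP-43 and 107, 94.3 and 96.5 CPM per kb in the A315T cultures, with a mean of 91.7 ± 13.3 (SD, n = 8). The genotypes overlapped for this gene.

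Gria1, which encodes the AMPA receptor subunit GluA1, was next with 88.6 and 66.9 CPM per kb in WT, 113, 62.5 and 67.5 CPM per kb in hTDP-43 and 100.2, 66.2 and 67.7 in the A315T cultures (mean 79.0 ± 19.0). Gabbr1 was above Gria1 in 7 of 8 cultures. Below these the order was not resolved, since each of the following neighbours among the first 10 exceeded the next in only 4 or 5 of 8 cultures. Among those genes were Gabbr2, the G protein-coupling GABA-B subunit (49.5 ± 11.7 CPM per kb, range 38.2 to 69.6), and Grin1 (49.2 ± 8.61, range 34.8 to 62.6). They were followed by Gabra5, a GABA-A alpha subunit found largely outside synapses, with 42.3 ± 11.5 CPM per kb (range 17.3 to 52.8). The AMPA subunit gene Gria2, whose edited product makes the channel impermeable to calcium, had 42.0 ± 9.46 CPM per kb, and the group I metabotropic receptor gene Grm5 had 41.8 ± 8.81. The kainate subunit gene Grik5 had 40.3 ± 9.74 and Gabrb2 34.4 ± 5.78 CPM per kb.

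The remaining 29 genes had mean footprint levels from 30.4 CPM per kb (Gabra3) down to 0.0115 CPM per kb (Grm6). Expression of 4 genes was barely detected in neurons. Over all 8 footprint libraries there was 1 read each on Gabra6, a subunit known from cerebellar granule cells, on Grin3b and on Grm6, a receptor known from retinal bipolar cells, and there were 7 reads on Grin2c. The other 35 genes could be tested in neurons.

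The choice of length changed this order. Per kb of coding sequence, where most footprints are expected but to which the counts were not restricted, Gria2 had the highest level, 233 CPM per kb, while Gabbr1 had 212, Gria1 168 and Grin1 162 CPM per kb. Total mRNA per kb of exonic length was led by Grik5 with 160 ± 18.8 CPM per kb, ahead of Gabbr1 (126 ± 8.77), Gria1 (84.9 ± 12.8) and Gabbr2 (83.9 ± 5.31). Grik5 thus stood first in total mRNA and ninth in footprints.

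**Figure D1:**
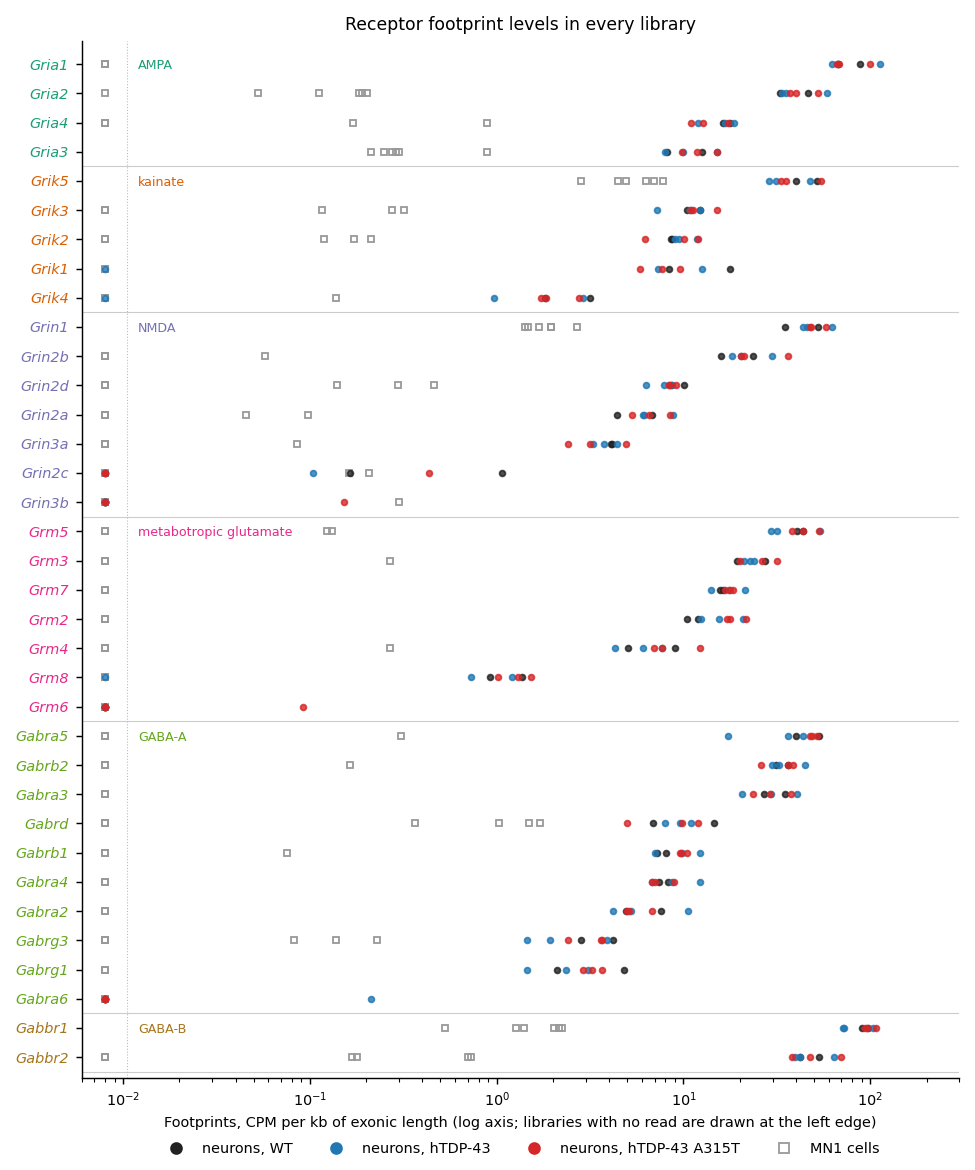
Footprint level of 35 of the 39 receptor genes in every library, as CPM per kb of exonic length on a log axis, grouped by subfamily and ordered by mean; filled circles are the 8 neuron cultures coloured by genotype and open squares the 6 MN1 cultures, with libraries without a read at the left edge. Neuron genotypes are intermixed for nearly all genes, and in MN1 cells Grik5 lies to the right of the other genes drawn.

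Subunits of the same receptor differed in level in a way that was similar in all neuron cultures. Within the AMPA subfamily Gria1 held 53.4 ± 1.48% of the summed footprint level per kb of exonic length (SD, n = 8). Gria2 held 28.4 ± 1.65%. Per kb of coding sequence their order was reversed, with mean footprint levels of 168 CPM per kb for Gria1 and 233 CPM per kb for Gria2. Within the NMDA subfamily Grin1 held 53.9 ± 2.73%, Grin2b 24.9 ± 2.70%, Grin2d 9.54 ± 2.47% and Grin2a 7.15 ± 0.625%. The order of Grin2d and Grin2a was also reversed per kb of coding sequence, at 12.4 and 26.8 CPM per kb. Grin2b and Grin2a encode the GluN2 subunits that predominate in the immature and in the mature forebrain, respectively. The footprint level of Grin2b was 3.00 to 4.27 times that of Grin2a (median 3.41), and its total mRNA level was 3.82 to 4.93 times as high, so Grin2b led in every culture and in both library types.

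Grin1, the obligatory subunit, exceeded Grin2b by 1.61 to 2.40 times in footprints (median 2.25). In total mRNA the same quotient ran from 0.336 to 1.55 (median 0.758). The footprint quotients did not overlap with those of total mRNA. Coding sequence made up 30.3% of the exonic length of Grin1 and 17.9% of that of Grin2b, so the footprint quotient depends on the length used. Among kainate receptor genes Grik5 held 56.3 ± 3.54% of the footprint level and 76.3 ± 3.85% of the total mRNA level. Among GABA-A footprints Gabra5 held 17.1 ± 4.22% and Gabrb2 14.1 ± 2.18%. Coding sequence made up 52.4% and 24.2% of their exonic length, so their order also depends on the length used. Grm5 led the metabotropic receptors with 36.0 ± 3.57%, ahead of Grm3 with 20.9 ± 2.60%.

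Whether the human proteins altered translation or abundance of the receptor mRNAs was asked by comparing the 3 neuron genotypes in pairs. No receptor gene passed an adjusted p of 0.05 in any of the 9 comparisons of footprints, total mRNA or their ratio (edgeR quasi-likelihood test across all genes, Benjamini-Hochberg adjustment), and DESeq2 called 0 receptor genes in each as well. Across all genes this edgeR fit, which has no replicate block, called 0 too. DESeq2 called 1 gene in each library type for hTDP-43 A315T against WT and 0 in the other 7 comparisons. The count for the receptor genes therefore does not set them apart. With a replicate block edgeR called some genes, as given in the last section, and 0 of them were receptor genes. In bulk cultures fewer cells of a type and less RNA per cell cannot be told apart.

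In footprints, 0 of 35 receptor genes passed between hTDP-43 A315T and WT (0% of 9510 genes tested). At an unadjusted p under 0.05 there was 1 of 35 receptor genes, against 3.15% of all genes. For hTDP-43 against WT the counts were 0 of 33 (0% of 8117 genes) and, unadjusted, 1 of 33, against 5.16% of all genes. For hTDP-43 A315T against hTDP-43 they were 0 of 33 (0% of 8367 genes) and, unadjusted, 0 of 33, against 2.59%. The gene with the smallest p in both comparisons with WT was Grm2, a group II metabotropic receptor that lowers transmitter release. Its footprints were at 34.5 and 39.5 CPM in WT, at 68.8, 41.4 and 51.7 CPM in hTDP-43 and at 56.9, 71.8 and 58.8 CPM in the A315T cultures. Both WT cultures lay below all 6 transgenic cultures. In hTDP-43 replicates 2 and 3, however, 3 footprint reads correspond to 15.6 and 18.1 CPM before scaling. The gap between the nearest cultures, at 39.5 CPM in WT and 41.4 CPM in hTDP-43, is smaller than that. The log2 difference was 0.69 (SE 0.27, unadjusted p = 0.0249, adjusted p = 1.00, edgeR) for hTDP-43 A315T and 0.66 (SE 0.27, unadjusted p = 0.0257, adjusted p = 0.915, edgeR) for hTDP-43. These comparisons share the 2 WT cultures. In total mRNA Grm2 was at 28.5 and 32.5 CPM in WT, at 50.0, 49.0 and 27.9 CPM in hTDP-43 and at 42.8, 44.3 and 48.9 CPM in the A315T cultures. In that library type only the hTDP-43 A315T cultures lay clear of WT.

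The second smallest p in footprints for hTDP-43 against WT belonged to Grin2a (log2 difference 0.38, SE 0.20, unadjusted p = 0.0810, edgeR). Between the transgenic genotypes the GABA-A alpha subunits Gabra2 and Gabra5 came first. Gabra2 had a log2 difference of -0.50 (SE 0.24, unadjusted p = 0.0525, edgeR), with 80.9, 32.2 and 40.2 CPM in hTDP-43 and 51.9, 39.0 and 38.1 CPM in the A315T cultures, so the groups overlapped. For Gabra5 the difference was 0.43 (SE 0.21, unadjusted p = 0.0561, edgeR), with 116, 96.7 and 46.0 CPM in hTDP-43 and 126, 129 and 137 CPM in the A315T cultures. The third hTDP-43 culture was low for this gene, and the groups did not overlap. In hTDP-43 replicates 2 and 3, 3 footprint reads correspond to 15.6 and 18.1 CPM before scaling. The values of Gabra2 in both and of Gabra5 in the third therefore rest on few reads.

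Total mRNA gave 0 of 35 receptor genes for hTDP-43 A315T against WT (0% of 11927 genes, and unadjusted 0 of 35 against 1.64%). It gave 0 of 35 for hTDP-43 against WT (0% of 11828 genes, and unadjusted 0 of 35 against 0.372%) and 0 of 35 for hTDP-43 A315T against hTDP-43 (0% of 11201 genes, and unadjusted 0 of 35 against 1.06%). Grin3a, a glycine-binding NMDA subunit that lowers calcium entry, had the smallest p in both comparisons that involve hTDP-43 A315T. It was at 64.3 and 86.7 CPM in WT, at 66.5, 64.3 and 94.5 CPM in hTDP-43 and at 59.3, 51.1 and 50.1 CPM in the A315T cultures. The 3 mutant cultures were below all 5 others. The log2 difference was -0.57 against WT (SE 0.26, unadjusted p = 0.0599, edgeR) and -0.48 against hTDP-43 (SE 0.22, unadjusted p = 0.0527, edgeR). The other genes with the smallest p were Grm2 against WT (0.50, SE 0.25, unadjusted p = 0.0820, edgeR) and Gria3, an X-linked AMPA subunit, against hTDP-43 (-0.56, SE 0.29, unadjusted p = 0.0830, edgeR). For hTDP-43 against WT they were the group III metabotropic receptor gene Grm4 (0.44, SE 0.27, unadjusted p = 0.151, edgeR) and Grm2 (0.47, SE 0.33, unadjusted p = 0.189, edgeR).

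The median difference over the 35 receptor genes in total mRNA was -0.10 on the log2 scale for hTDP-43 A315T against WT and -0.15 for hTDP-43 A315T against hTDP-43. Of the 35 genes 25.7% and 17.1% lay above 0, against 50.3% and 48.9% of all genes tested. For hTDP-43 against WT the median was 0.07 and 57.1% of the 35 genes lay above 0, against 49.8% of all genes. With single cultures left out, the median for hTDP-43 A315T against WT ran from -0.39 to 0.13, so its sign rested on single cultures. For hTDP-43 against WT it ran from -0.15 to 0.35, and for hTDP-43 A315T against hTDP-43 from -0.29 to -0.07. These medians and shares were not tested.

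1 library decided the count in total mRNA. Without WT replicate 2, which left WT replicate 3 alone, edgeR called 6 of 35 receptor genes lower in hTDP-43 A315T, against 6.57% of 12558 genes, and 1573 genes in either direction. The 6 were Gria2 (-1.11), Gabrb1 (-1.22), Gabrg1 (-1.64), Grm3 (-1.07), Grik2 (-0.95) and Grin3a (-0.81). The lone WT culture is there assumed to vary like the mutant ones. The WT cultures differed widely from each other in total mRNA, with Grin2b at 658 and 1874 CPM, Gria2 at 232 and 750 CPM and Gabrb1 at 88.1 and 322 CPM in replicates 2 and 3. In footprints the same genes were at 583 and 395 CPM, at 721 and 509 CPM, and at 100.4 and 111 CPM.

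The ratio of footprints to total mRNA, a measure of translational efficiency, was compared by the interaction of library type and genotype. It gave 0 of 35 receptor genes for hTDP-43 A315T against WT (0% of 11831 genes, and unadjusted 0 of 35 against 1.65%) and 0 of 35 for hTDP-43 against WT (0% of 10464 genes, and unadjusted 0 of 35 against 0.688%). For hTDP-43 A315T against hTDP-43 it gave 0 of 35 (0% of 10967 genes, and unadjusted 1 of 35 against 1.19%). That gene was Grm4, with a log2 difference in ratio of 0.72 (SE 0.31, unadjusted p = 0.0309, edgeR). Its footprints were at 41.0, 32.2 and 23.0 CPM in hTDP-43 and at 64.9, 41.0 and 37.0 CPM in the A315T cultures, while its total mRNA was at 106, 102 and 129 CPM and at 97.3, 95.4 and 90.1 CPM. The footprint values of hTDP-43 replicates 2 and 3 rest on few reads, since 3 reads correspond there to 15.6 and 18.1 CPM before scaling. Gabra5 was second (0.55, SE 0.28, unadjusted p = 0.0668, edgeR). The genes with the smallest p against WT were Grik2 (0.83, SE 0.45, unadjusted p = 0.0885, edgeR) and Grik5 (-0.53, SE 0.30, unadjusted p = 0.104, edgeR) for hTDP-43, and Gabrb1 (0.89, SE 0.62, unadjusted p = 0.178, edgeR) and Grik2 (0.61, SE 0.46, unadjusted p = 0.208, edgeR) for hTDP-43 A315T. The value of Gabrb1 turned to -0.29 without WT replicate 3.

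Precision differed between the measures. The median SE of a receptor gene was 0.20, 0.21 and 0.19 on the log2 scale in the 3 footprint comparisons, 0.32, 0.36 and 0.25 in total mRNA, and 0.43, 0.44 and 0.36 in the ratio. Differences near these sizes were not detectable with 2 or 3 cultures a genotype. Gria1, for example, differed by -0.05 (SE 0.17) in footprints between hTDP-43 A315T and WT and by 0.13 (SE 0.18) between hTDP-43 and WT.

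**Figure D2:**
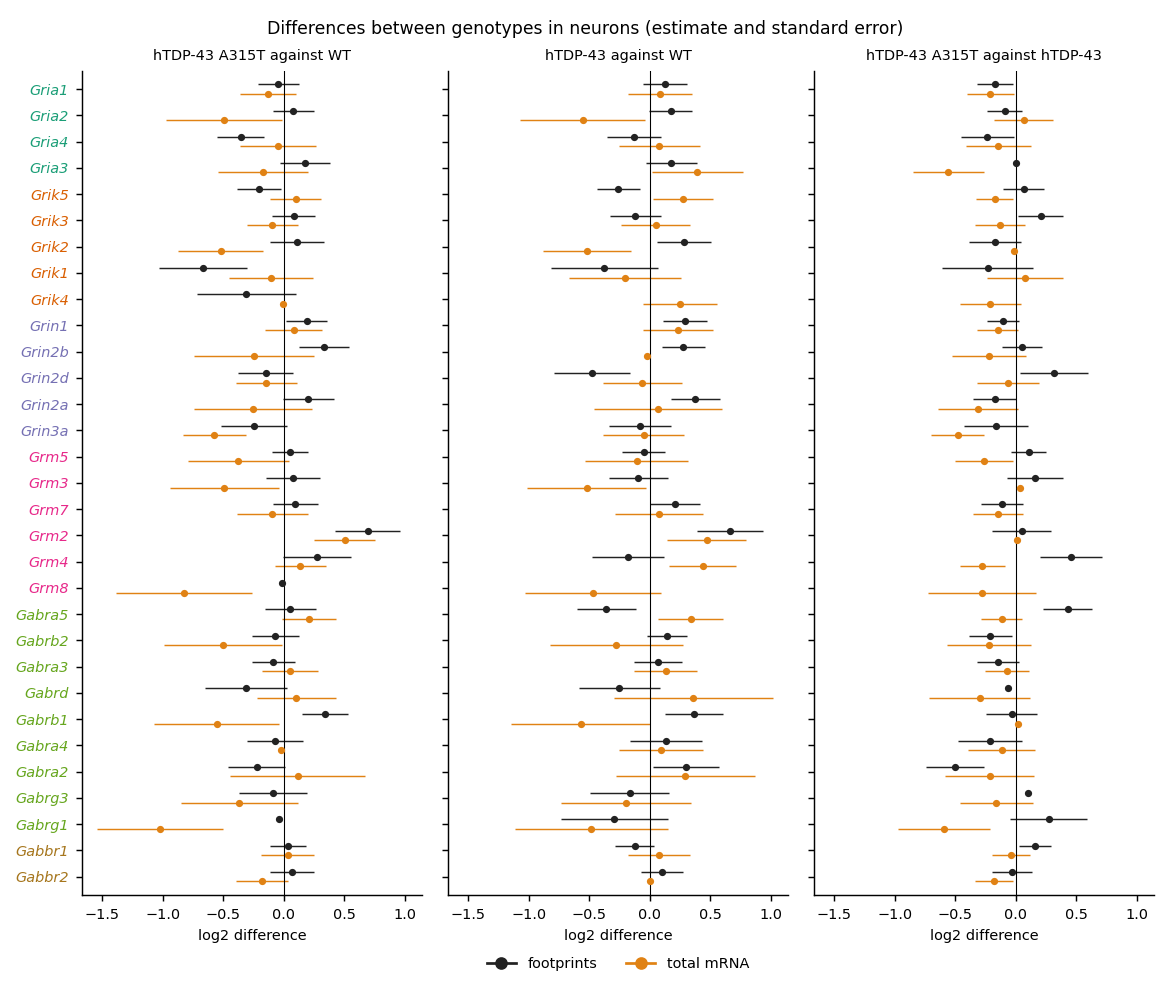
Log2 differences between neuron genotypes for 31 of the 35 receptor genes tested, in footprints (black) and total mRNA (orange), with the 3 pairs of genotypes in 3 panels; points are edgeR estimates and bars are standard errors, which are not drawn where the unadjusted p exceeds 0.9. Most total mRNA estimates lie below 0 in both panels that involve hTDP-43 A315T, bars are mostly longer in total mRNA, and 0 genes pass an adjusted p of 0.05. The sign of the total mRNA median against WT depends on single cultures.

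The summed footprints and the summed total mRNA of the subfamilies overlapped between WT and both transgenic genotypes with few exceptions. Metabotropic receptor footprints summed to 591 and 679 CPM in the WT cultures, to between 523 and 819 CPM in hTDP-43 and to between 681 and 837 CPM in hTDP-43 A315T, so that the WT and mutant ranges lay next to each other without overlap. Kainate receptor total mRNA summed to 877 and 971 CPM in WT and to between 999 and 1078 CPM in hTDP-43, again without overlap, and to between 897 and 1066 CPM in hTDP-43 A315T. These sums were not tested, and with so few cultures a genotype ranges can lie apart by chance.

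Apart from genotype, the ratio of footprints to total mRNA differed strongly between receptor genes and between subfamilies. Over all 16 neuron libraries 24 of 35 receptor genes passed the test of footprints against total mRNA. Of these, 14 were higher in footprints (26.6% of 11654 genes tested were) and 10 were lower (27.3% of all genes were). The ratio is relative to the typical gene, since each library type is scaled to its own total. AMPA receptor genes gave 3 higher and 0 lower of 4, GABA-A genes 6 higher and 0 lower of 12 and metabotropic receptor genes 4 higher and 1 lower of 7. Kainate receptor genes gave 0 higher and 3 lower of 5, NMDA receptor genes 1 higher and 4 lower of 5, and both GABA-B genes were lower.

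The sequence around the start codon is shown for 3 genes with high ratios and the 4 with the lowest ratio among those that passed, since initiation is a main point of translational control. Each line gives 12 bases before the start codon, the start codon ATG in capitals, and 12 bases of coding sequence, from the GRCm38 transcripts of GENCODE M21. The first 3 genes had high and the last 4 had low ratios. With footprints divided by coding length and total mRNA by exonic length, Grm3 fell to 0.15 and the others kept their sign.
Grm3: gaaccaggattcATGaagatgttgaca
Gria3: aggcagaagaaaATGgggcaaagcgtg
Gabrb2: gaacctaaagggATGtggagagtccgg
Grik5: gaggggaggaagATGccggctgagctg
Grm4: agcctttccgaaATGtccgggaaggga
Grik4: gagttatagaagATGccccgtgtctcc
Grik3: tggcgcccaacgATGaccgctccctgg

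These windows lie in single exons at chr5:9590029-9590055 (minus strand), chrX:41401553-41401579 (plus), chr11:42421338-42421364 (plus), chr7:25068508-25068534 (minus), chr17:27503151-27503177 (minus), chr9:42808560-42808586 (minus) and chr4:125490819-125490845 (plus), in the order of the lines. In mammals a purine 3 bases before the start codon and a G directly after it are the best known features of a strong start. The purine is present in 35 of 39 receptor genes (89.7%) against 84.0%, and the G in 19 of 39 (48.7%) against 49.2%. The shares set against them cover the 20563 protein-coding genes whose transcript has an ATG start after at least 3 leader bases. The 5′ leaders of the 7 genes are 182, 261, 427, 303, 983, 322 and 131 bases long and hold 1, 1, 5, 1, 5, 4 and 0 further ATG triplets. Among all receptor genes 66.7% have at least 1 such upstream ATG, against 51.4% of protein-coding genes, and the median leader has 303 bases against 157. The leaders of the 3 genes with high ratios lie within the range of those of the 4 genes with low ratios.

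Grik5, a kainate subunit that forms channels only together with the products of Grik1, Grik2 or Grik3, had the lowest ratio. Its footprints were at 198 and 153 CPM in WT, 182, 110 and 121 CPM in hTDP-43 and 209, 127 and 136 CPM in the A315T cultures. Its total mRNA was at 613 and 481 CPM, at 695, 700.5 and 606 CPM, and at 658, 563 and 609 CPM. Every footprint value was below every total mRNA value, and the log2 ratio was -1.85 (SE 0.11, adjusted p = 3.75e-09, edgeR).

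The kainate subunit genes Grik4 and Grik3 and the metabotropic receptor gene Grm4 were also low. Grm4 had footprints between 23.0 and 64.9 CPM and total mRNA between 74.5 and 129 CPM, with a log2 ratio of -1.17 (SE 0.14, adjusted p = 2.47e-06, edgeR). Grik4 had a log2 ratio of -1.15 (SE 0.22, adjusted p = 0.000338, edgeR) on few footprints, 0 to 18.9 CPM per library. Grik3 had a log2 ratio of -1.07 (SE 0.12, adjusted p = 1.27e-06, edgeR), with footprints between 64.4 and 136 CPM and total mRNA between 187 and 284 CPM.

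The other genes that were lower in footprints were the NMDA subunits Grin2b (-1.05), Grin2d (-0.83), Grin2a (-0.70) and Grin3a (-0.42) and the GABA-B subunits Gabbr2 (-0.67) and Gabbr1 (-0.35). Grin1 went the other way with 0.53 (SE 0.12, adjusted p = 0.000959, edgeR). With footprints divided by coding length and total mRNA by exonic length, Grin2b and Grin1 stood on the same side, at 0.07 and 0.89. Grin1 shares 13.5% of its exonic bases with the antisense gene Grin1os, and the reads were counted without strand.

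At the upper end stood Grm3, a group II metabotropic receptor known from neurons and astrocytes, with a log2 ratio of 1.29 (SE 0.21, adjusted p = 4.59e-05, edgeR). Its footprints were at 59.3 to 96.4 CPM and its total mRNA at 20.7 to 56.8 CPM, without overlap. Gria3 had a ratio of 1.23 (SE 0.18, adjusted p = 1.74e-05, edgeR) and Gabrb2 one of 1.21 (SE 0.23, adjusted p = 0.000279, edgeR). For these 3 genes the ratio was above 0 in 8 of 8 cultures, and for the 4 at the lower end it was below 0 in 8 of 8.

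Other higher genes were Grm7 (1.11), Gabrg1 (0.98), Gabra3 (0.82), Gabrd (0.79), Gria2 (0.78), Gria4 (0.66), Grm5 (0.62) and Grm2 (0.45). Gria1 had a log2 ratio of -0.01, which did not pass the test, so AMPA subunits differed among themselves by over 1 log2 unit. Removing single cultures left between 20 and 24 of the receptor genes called.

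**Figure D3:**
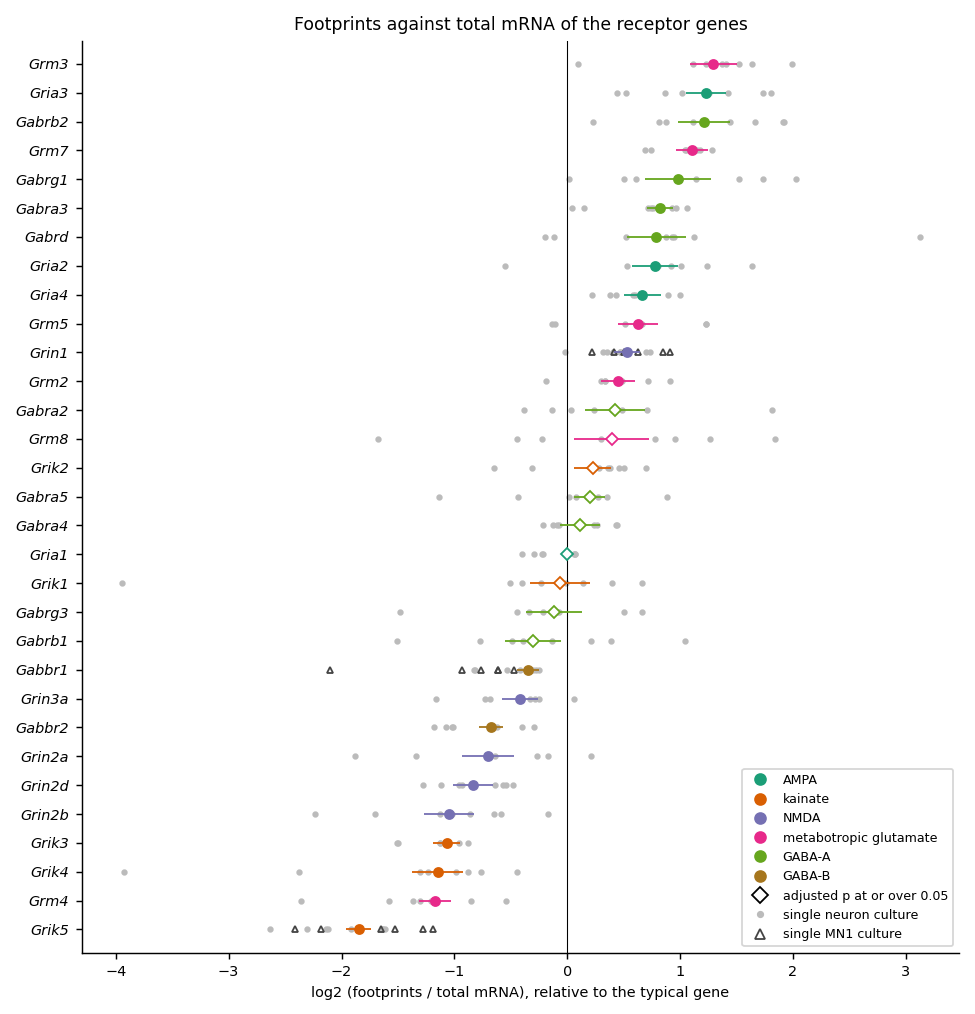
Log2 ratio of footprints to total mRNA for 31 of the 35 receptor genes tested in neurons; large symbols are edgeR estimates with standard errors, coloured by subfamily and open where the adjusted p is at or over 0.05, small grey points are the 8 single neuron cultures and open triangles the 6 single MN1 cultures of Grik5, Grin1 and Gabbr1. Grik5 is lowest at -1.85 and Grm3 highest at 1.29, and the MN1 cultures of Grik5 lie on the same side of 0 as the neurons.

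The ratio also depends on how much of the counted length is coding, because total mRNA reads fall on the whole transcript and footprints mainly on the coding part. Coding sequence made up a median 35.7% of the exonic length of the 35 receptor genes and 39.0% of that of all protein-coding genes tested. Across the 35 genes the ratio had a Pearson correlation of -0.11 with this share, given as a description only, against 0.19 across 11388 protein-coding genes. When footprints were divided by coding length and total mRNA by exonic length, centred on all genes, Grik5 went to -2.89 and stayed the lowest. The values of Grin2b (0.07), Grin2a (-0.03) and Grin3a (0.08) came close to 0, Grm3 fell to 0.15 and Grm2 changed sign to -0.57. By this measure the median of the NMDA genes moved from -0.70 to 0.07, while those of the kainate genes (-1.07 and -1.36), the GABA-B genes (-0.51 and -0.74), the AMPA genes (0.72 and 1.05) and the GABA-A genes (0.61 and 1.49) kept their sign.

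In MN1 cells a ratio is given for Grik5, Grin1 and Gabbr1, which rests on few footprint reads. The lowest counts in a culture were 4, 7 and 4, respectively. The log2 ratio of Grik5 ran from -2.41 to -1.19 over the 6 MN1 cultures, that of Grin1 from 0.22 to 0.91 and that of Gabbr1 from -2.10 to -0.47. Their signs were those seen in neurons in 6 of 6 cultures. These MN1 ratios were not tested.

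Total mRNA levels of several receptor genes varied between cultures along with the share of Lars2 reads. This share was 3.09% and 18.8% in the WT cultures, 6.84%, 4.16% and 14.1% in hTDP-43 and 7.49%, 4.85% and 3.24% in the A315T cultures. Grin2b total mRNA in the same cultures was at 658 and 1874 CPM, at 1610.2, 791 and 1489 CPM, and at 1638, 1025 and 791 CPM. The cultures with the 4 highest Lars2 shares had the 4 highest Grin2b levels. Grin2b footprints were at 583 and 395 CPM, at 735, 502 and 454 CPM, and at 900.1, 502 and 524 CPM and did not follow that order.

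Over the 8 cultures 8 of 35 receptor genes passed an adjusted p of 0.05 for the correlation of the log2 level in total mRNA with the log2 Lars2 share, all with a positive sign. Of all 11927 genes 6.76% did so with a positive sign and 21.2% in either direction (exact permutation test over 40320 pairings, two-sided, Benjamini-Hochberg adjustment over all genes). At an unadjusted p under 0.05, in either direction, there were 15 of 35 receptor genes (42.9%) and 40.2% of all genes. The 8 genes were Gabrg3, Grin2a, Grm3, Grm5, Gabrb1, Grin2b, Gabrb2 and Grm7, with r between 0.842 and 0.931. With Spearman's rho 2 of 35 passed, Gabrg3 and Grin2a, both positive, against 1.84% of all genes with a positive sign and 4.89% in either direction. Gabrg3 had r = 0.931 (exact permutation p = 0.000273, adjusted p = 0.0147) and rho = 0.976 (exact permutation p = 0.000397, adjusted p = 0.0275). Grin2a had r = 0.913 (exact permutation p = 0.00131, adjusted p = 0.0227) and rho = 0.976 (exact permutation p = 0.000397, adjusted p = 0.0275). Grin2b had r = 0.885 (exact permutation p = 0.00466, adjusted p = 0.0342) and rho = 0.905 (exact permutation p = 0.00456, adjusted p = 0.0556).

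Without the WT replicate 3 and hTDP-43 replicate 3 cultures, the farthest in Lars2 share, r was 0.952 for Gabrg3, 0.976 for Grin2a and 0.974 for Grin2b over 6 cultures. Among the 8 genes it ran from 0.673 (Grm7) to 0.990 (Grm5). Grin1 had the opposite sign (r = -0.776, exact permutation p = 0.0172, adjusted p = 0.0640; rho = -0.714, exact permutation p = 0.0576, adjusted p = 0.171), and without these cultures its r was -0.258, so it rests on them. Footprint levels gave 0 of 35 receptor genes and 0 of 9510 genes against the same share, with 2 of 35 at an unadjusted p under 0.05, against 3.45% of all genes. Cultures that share a replicate number were also compared only with each other, a calculation added after the data were seen, in which values were centred on their number and exchanged within it (72 pairings, smallest possible p 0.0139). For the 8 genes the within-number r in total mRNA ran from 0.729 (Grm7) to 0.974 (Grm5), with 0.946 for Gabrg3, 0.954 for Grin2a and 0.965 for Grin2b. The 8 genes were chosen by their correlation in these same libraries, so their r values here are a description only. At an unadjusted p under 0.05 there were 5 of 35 receptor genes with a positive sign, against 3.14% of all genes, and 0 passed after adjustment over all genes (smallest adjusted p = 0.413, exact permutation test, two-sided). Grin1 had a within-number r of -0.627 (exact permutation p = 0.403, adjusted p = 0.735). In footprints 0 of 35 receptor genes had a positive sign at an unadjusted p under 0.05, against 0.294% of all genes. Since total mRNA enters the ratio, the culture-to-culture spread of the ratio of these genes includes this variation, and its part in the ratio was not tested.

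**Figure D4:**
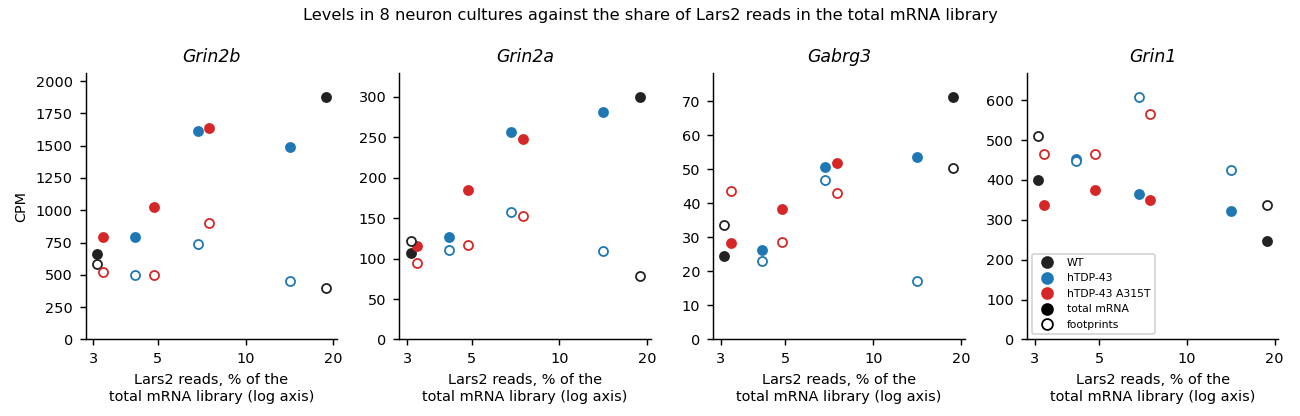
CPM of Grin2b, Grin2a, Gabrg3 and Grin1 in the 8 neuron cultures against the percentage of Lars2 reads in the total mRNA library of the same culture (log axis); filled circles are total mRNA, open circles footprints, and colours are genotypes. Total mRNA of the first 3 genes is higher where the Lars2 share is higher, with r of 0.885, 0.913 and 0.931, and footprints show no such order.

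MN1 cells served as the contrast to cortical neurons, and all receptor genes that could be tested were lower there. In footprints 34 of 34 receptor genes tested were higher in neurons (42.7% of 10698 genes tested were), and in total mRNA 35 of 35 were (42.6% of 12801 genes were). The test compared the mean of the 3 neuron groups with the mean of the 3 MN1 groups in edgeR. Genes with few or no MN1 reads passed the filter on low counts through the neurons, which fixed their direction, and Grin3b, with more total mRNA reads in MN1 cells, did not pass it, so these counts are a description. In MN1 footprints 8 of the tested genes had no read in any of the 6 libraries and 16 had 1 to 3 reads, and in MN1 total mRNA these numbers were 2 and 9. With genes without a read set to the level that 3 reads over all 6 libraries would give, the median log2 difference was 7.18 in footprints and 7.26 in total mRNA.

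The 5 genes with the largest fitted log2 differences in footprints were Gria1, Grin2b, Grm5, Gabrb2 and Gabra3. For genes with 0 MN1 reads the fold is only a bound, so their place in this order was not resolved. Gria1 had 4109 reads in neurons and 0 in MN1 cells and was at least 769-fold higher in neurons. Grin2b had 1 MN1 read, which gave a 2776-fold difference with a 95% counting interval of 498 to 109626. Grm5 had 2 MN1 reads (805-fold, 223 to 6646) and Gabrb2 had 1 (1057-fold, 190 to 41744), while Gabra3 had 0 and was at least 192-fold higher, below the 621-fold of Gabrb1 (1 read, interval 112 to 24538). The intervals and bounds cover counting error only. In total mRNA the largest fitted differences were those of Grm5 (814-fold, 4 MN1 reads), Grin2b (1093-fold, 16 reads), Grik2 (985-fold, 1 read, interval 177 to 38903), Gria1 (727-fold, 10 reads) and Grm2 (0 reads, at least 191-fold, below the 525-fold of Gabra3 with 2 reads).

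In MN1 cells 480 footprint reads and 2750 total mRNA reads fell on receptor genes. Grik5 footprints were at 26.6 and 18.9 CPM in GFP, 24.3 and 10.9 CPM in hTDP-43 and 17.2 and 29.7 CPM in the A315T cultures, against 110.5 to 209 CPM in neurons. Grin1 was at 13.8 to 26.2 CPM and Gabbr1 at 4.09 to 17.5 CPM in MN1 footprints.

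These 3 genes and Gabrd, the subunit of extrasynaptic GABA-A receptors, were closer to the neuron level than the typical receptor gene. In footprints, where the median with bounds was 7.18, their log2 difference was 2.87 (SE 0.16) for Grik5, 3.36 (SE 0.38) for Gabrd, 4.73 (SE 0.15) for Grin1 and 5.89 (SE 0.19) for Gabbr1. The AMPA receptor genes together reached 6.64 ± 2.44 CPM and the metabotropic receptor genes 1.00 ± 0.596 CPM in MN1 footprints (SD, n = 6). Grin3b had too few reads to be tested in the main comparison, with 29 total mRNA reads in MN1 cells and 11 in neurons. It was called lower in neurons by DESeq2 (log2 difference -1.93) and by edgeR without a filter on low counts (-1.91), and 32.1% of its exonic bases overlap another gene, Tmem259.

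**Figure D5:**
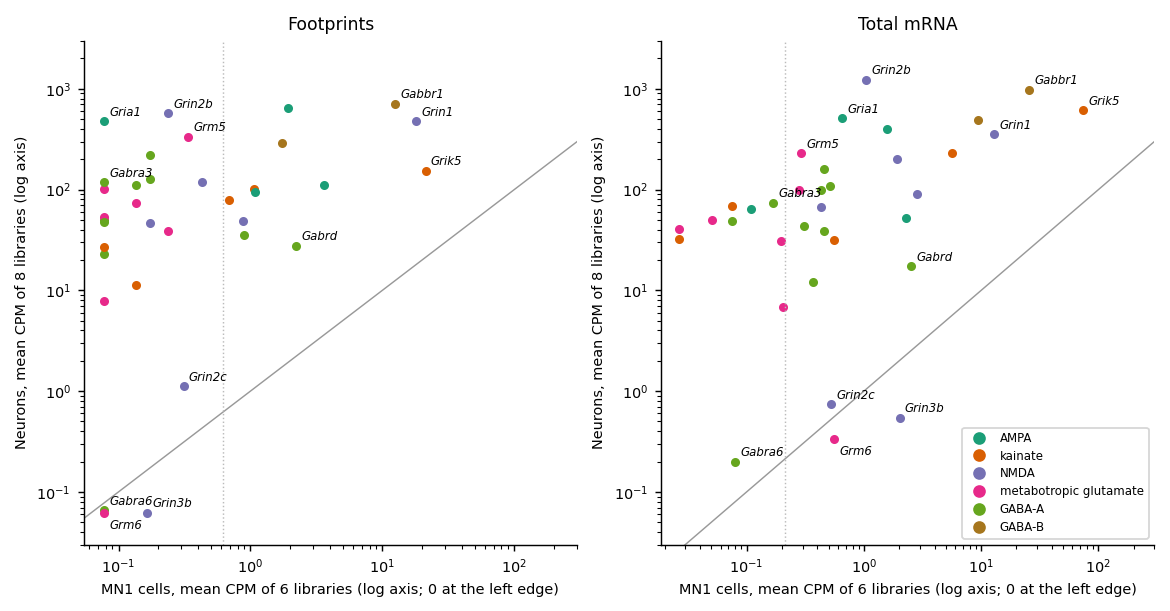
Mean CPM of 35 of the 39 receptor genes in neurons (8 libraries) against MN1 cells (6 libraries) for footprints and total mRNA, on log axes and coloured by subfamily; the diagonal marks equal levels, the dotted line the level of 3 reads over the 6 MN1 libraries, and genes without an MN1 read sit at the left edge. All tested genes drawn lie above the diagonal, with Grik5, Gabrd, Grin1 and Gabbr1 near to it.

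Proteins that carry, anchor or modify these receptors were examined as 39 companion genes, among them AMPA receptor auxiliary subunits, synaptic scaffolds and GABA-A receptor anchoring proteins. In the 9 genotype comparisons 0 of the 31 to 33 companions tested passed (edgeR). At an unadjusted p under 0.05 there were 2 of 31 in footprints for hTDP-43 against WT (5.16% of all genes), 1 of 31 for hTDP-43 A315T against WT (3.15%) and 0 in the other 7. Against MN1 cells 31 of 31 were higher in neurons in footprints (42.7% of all genes) and 29 of 32 in total mRNA (42.6%), with the same limit from the filter. In footprints against total mRNA 6 of 33 were higher (26.6% of all genes) and 12 were lower (27.3%), and 7 of the 12 AMPA auxiliary subunits were among the lower ones, with 1 higher. The smallest p-values there were those of Cacng4, an AMPA receptor auxiliary subunit (log2 ratio -1.55, SE 0.11), Lhfpl4 (-1.54, SE 0.11) and Nlgn2 (-1.18, SE 0.10), both needed at inhibitory synapses, and Gphn, the gene of the inhibitory scaffold gephyrin (1.33, SE 0.13).

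Several GABA-A receptor genes lie in clusters (GRCm38, positions from the deposited annotation). Gabrg1, Gabra2, Gabra4 and Gabrb1 lie together at chr5:70751047-72149037, while Gabrd lies alone on chromosome 4 and Gabra3 on chromosome X. On chromosome 5 the mean footprint levels lay between 2.94 (Gabrg1) and 9.29 (Gabrb1) CPM per kb of exonic length and between 16.6 (Gabrg1) and 90.4 (Gabrb1) CPM per kb of coding length. Gabrb2 and Gabra6, both on chromosome 11, had 34.4 and 0.0264 CPM per kb of exonic length. The receptor genes are long, with a median genomic span of 223474 bases for the 35 tested genes against 26726 bases for all protein-coding genes tested.

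TDP-43 binds UG repeats, and the transcripts were searched for 6 or more TG units in a row on the sense strand. Such a run was present in 6 of 39 receptor transcripts (15.4%), against 5.86% of all protein-coding genes and a mean of 11.4% for transcripts within 20% of each member's length. The 6 were Gria2 with 6 units in the 5′ leader, and Gabbr1 with 6, Grik4 with 8, Grin2b with 21, Grik2 with 22 and Grik3 with 26 units in the 3′ part after the stop codon. None of these 6 genes passed in a comparison of genotypes (edgeR, DESeq2), other than Gria2 and Grik2 in total mRNA without WT replicate 2. In the main fit, with all cultures, the filter on low counts and no replicate block, edgeR called 0 of all genes in each comparison of genotypes. This result therefore does not set genes with such a run apart. With the replicate block some genes were called, as given in the last section, and 0 of them were receptor genes. A match is a description of the sequence and not a measured binding site.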

How the data were processed

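The 28 tables hold raw counts of reads per gene, as deposited by the authors, neither normalized nor pooled. Per the labels and the study's methods, the authors clipped adapters with cutadapt 1.8.1, removed reads that Bowtie2 aligned to non-coding RNA, aligned the rest to GRCm38 with TopHat2 and counted reads on exons with featureCounts 1.4.4. Reads were counted without strand, and those matching several places or genes were left out of the counts, which affects overlapping genes. Total mRNA was poly(A)-selected and footprints were not.

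Samples were grouped by their labels. Symbols and biotypes came from GENCODE M21, which names 44585 of the 45513 genes; 27 of the 39 members have the same start and end there as in the tables. Counts were tested with edgeR 4.0.16 in R 4.3.3 (glmQLFit and glmQLFTest, TMM scaling, filterByExpr with a minimum count of 10 and a minimum total of 15, Benjamini-Hochberg adjustment over all genes, threshold 0.05), and the code was tested on simulated data. The study used DESeq, in whose place edgeR stands. Standard errors were taken as the estimate divided by the square root of F and left out at p over 0.9. CPM are counts per 1000000 assigned reads, scaled by TMM factors over all 14 libraries of a type. The alternatives were DESeq2 1.42.0, its size factors in edgeR, no filter on low counts, protein-coding genes only, a replicate block, cultures left out, and libraries of at least 500000 reads.

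Libraries with the same replicate number carry the same date in their titles, so the numbers pair samples. Deviations from group means correlated by 0.120 on average between footprint libraries of the same number (0.0293 to 0.248, 7 pairs) and by -0.0598 between others, and in total mRNA by 0.171 (-0.175 to 0.520) and -0.0844. Because the deviations are centred on group means, the averages for other pairs largely follow from those of the same number. They are no separate evidence of pairing. Named genes were the 10 highest footprint levels, the 2 smallest p-values of each genotype comparison, the 5 largest differences in each direction between cell types and the 4 highest and 4 lowest ratios, and genes named beyond these were chosen after their values were seen. A few members are counted but not reported by name here. The members and lists were chosen with earlier results of these data known.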

Additional observations from a re-analysis of the deposited data

How the results depend on the processing

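Of 153 recomputed counts of receptor genes called, 152 stayed within 1.5 times the reported count and 1 did not: without WT replicate 2, A315T neurons against WT in total mRNA gave 6 genes where it had been 0. Grin3a then passed the threshold with -0.81, and without WT replicate 3 the A315T ratio difference of Gabrb1 from WT turned to -0.29 (1.403 without WT replicate 2). The cause was not tested. The reported count was 0 in every comparison of genotypes, where the main fit called 0 of all genes, and it was every gene tested against MN1 cells. The agreement of the recomputed counts was therefore largely set beforehand and says little about the receptor genes. Leaving out single cultures gave 0 to 6 genes in that comparison, 0 in the other 8 comparisons of genotypes, 20 to 24 for footprints against total mRNA, 33 to 34 for footprints and 35 for total mRNA against MN1 cells. With the replicate number as a block, edgeR called 8, 5 and 15 genes of all genes in the footprint comparisons (each transgenic genotype against WT, A315T first, then the mutant against hTDP-43) and 35, 20 and 0 in total mRNA, with 0 receptor genes in each, and the culture block of the ratio called 0. The block gave 15 higher and 10 lower receptor genes for footprints against total mRNA and changed no other count of receptor genes. Without a filter on low counts 78, 58 and 23 genes of all genes were called in footprints and 209, 50 and 70 in total mRNA, with 0 receptor genes in each; in the ratio the numbers were 88, 18 and 40. DESeq2 called 1 gene of all genes in each library type for hTDP-43 A315T against WT, and 0 in the other 7. Of 153 medians 13 moved by more than their spread, and all 10 named levels per kb moved when coding length was used. Depth sets a floor: before scaling, 3 reads correspond to 1.19 to 18.1 CPM in the neuron footprint libraries and to 2.46 to 9.03 CPM in MN1 footprints.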
